A study of Homo sapiens with 2 samples.

Results

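The TGF-β receptors and the Smad proteins that carry their signal to the nucleus were followed in A549 cells, a human lung carcinoma line, either left without TGF-β or exposed for 12 h to the cytokine at 1 ng/ml. The members were the 10 genes TGFBR1, TGFBR2, TGFBR3, ACVR1, ACVR1B, SMAD1, SMAD2, SMAD3, SMAD4 and SMAD5, of 19775 genes that had a probe set with 1 gene symbol. They were found by gene symbol, and each of their 37 probe sets was examined. Total RNA from each culture was labelled with biotin and hybridized to 1 Affymetrix array, so each condition is 1 array. No other genotype, agent or time was part of the comparison. Neither condition was repeated, so the spread between cultures is unknown, every difference compares 1 array with 1 array, and no p-value is given.

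The deposited values are MAS5 signals, linear intensities with 1 value per probe set, and a fold change divides the TGF-β signal by the control signal or, for falls, the reverse. Levels of member genes were not compared with each other, because each probe set binds its target with its own strength, and the summed signals of marker lists given here only show whether a list was above background. As background served the brightest of 27 probe sets against Bacillus subtilis RNA (45.8 in the control, 56.6 with TGF-β), a level chosen once the values were known. If the dimmer of both signals was at background, the fold was taken against that level and is a lower bound. Probe sets averaging 48.7 or more over both arrays, the median of all probe sets, were kept, and the brightest kept one stood for its gene, giving 12375 genes. Of the 37 member probe sets, 29 were kept and 8 were too dim. On both arrays 26 of the 37 were above background, 7 were at background on both arrays, and 4 were at background on 1 array. All 10 genes had a kept probe set, and their brightest signals ran from 535 to 7117. All 6 epithelial markers were above background on at least 1 array, and they did not move together. KRT7, KRT8 and KRT18 were 1.13-fold to 1.55-fold higher with TGF-β, whereas EPCAM went from 2176 to 1616, KRT19 from 1492 to 991 and CDH1 from 1952 to 846. Their summed signal, 73975 on the control array and 88879 on the other, was carried by the 3 keratins that were higher. Signals of 12 markers of fibroblasts, immune cells and endothelium did not exceed 133, and their summed signals per list were between 85.1 and 229. Of 4 genes of the lung lineage, NKX2-1 was at background on both arrays and the others did not exceed 184.

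TGF-β signals through a pair of serine/threonine kinase receptors. The type II receptor TGFBR2 binds the ligand and phosphorylates the type I receptor TGFBR1, which in turn phosphorylates SMAD2 and SMAD3, and these enter the nucleus together with SMAD4. TGFBR3, also called betaglycan, is a co-receptor without kinase activity that presents ligand to TGFBR2. ACVR1 and ACVR1B are type I receptors of the same family. ACVR1B passes activin signals to SMAD2 and SMAD3, whereas ACVR1 mainly passes bone morphogenetic protein (BMP) signals to SMAD1 and SMAD5.

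The windows just before the annotated starts of the genes for TGFBR1, TGFBR2 and TGFBR3 are shown because these receptors bind TGF-β itself and their signals moved in different directions. Each sequence holds the 250 bases before the first start that the RefSeq table lists for the gene, in build GRCh38.p14, written 5′ to 3′ along the gene. Capitals mark CAGAC, the core of the CAGA box that Smad3 and Smad4 bind, and GGGCGG, the GC box bound by SP1, each on either strand. The TGFBR1 window lies at chr9:99104863-99105112 on the plus strand, that of TGFBR2 at chr3:30606106-30606355 on the plus strand and that of TGFBR3 at chr1:91886152-91886401 on the minus strand.
TGFBR1: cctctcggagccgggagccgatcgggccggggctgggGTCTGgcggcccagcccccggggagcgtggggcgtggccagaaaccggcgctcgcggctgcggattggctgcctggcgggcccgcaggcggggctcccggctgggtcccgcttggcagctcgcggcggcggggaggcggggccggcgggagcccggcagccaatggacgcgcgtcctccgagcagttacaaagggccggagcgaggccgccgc
TGFBR2: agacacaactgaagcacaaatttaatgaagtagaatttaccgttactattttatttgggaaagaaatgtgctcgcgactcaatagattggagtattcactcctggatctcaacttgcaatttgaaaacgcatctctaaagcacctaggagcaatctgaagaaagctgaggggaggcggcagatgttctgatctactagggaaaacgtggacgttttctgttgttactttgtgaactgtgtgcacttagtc
TGFBR3: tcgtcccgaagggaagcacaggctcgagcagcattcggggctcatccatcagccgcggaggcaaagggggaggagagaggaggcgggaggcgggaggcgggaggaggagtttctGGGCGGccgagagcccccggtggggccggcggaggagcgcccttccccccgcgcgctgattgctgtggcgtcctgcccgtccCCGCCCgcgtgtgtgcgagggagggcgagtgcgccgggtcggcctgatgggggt

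The TGFBR1 window shown held 1 CAGAC match, as GTCTG on the strand shown, and no GC box. Other annotated TGFBR1 windows held up to 6 GC boxes, and some of them held no CAGAC. The TGFBR3 window held 2 GC boxes and no CAGAC, and the TGFBR2 window held neither, although the second annotated TGFBR2 window held 2 GC boxes. G and C made up 79.6% of the TGFBR1 window, 73.6% of the TGFBR3 window and 40.8% of the TGFBR2 window, against a median of 58.0% over all genes. The other TGFBR1 windows ran from 40.8% to 82.0% and the second TGFBR2 window had 58.4%, so this contrast depends on the window. Among 27305 genes, CAGAC occurred in 37.8% of the first windows and GGGCGG in 42.3%. Of the 10 members, 2 had CAGAC in their first window, TGFBR1 and ACVR1, and 7 had GGGCGG. TGFBR1 has 8 annotated windows and TGFBR3 has 1, and which start A549 cells use was not measured. A match describes the letters in the window and is not evidence of binding.

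TGFBR1 was the only member whose brightest probe set differed by at least 2-fold. Among all kept genes 3.94% were at least 2-fold higher and 2.96% at least 2-fold lower, so the count of members past 2-fold, 1 rise and no fall, is too small to read against these shares. Past 1.5-fold, TGFBR1 and ACVR1 were higher and TGFBR2 and TGFBR3 were lower, against 9.16% of all kept genes higher and 9.08% lower. By their brightest probe sets, the remaining 6 members, SMAD1, SMAD2, SMAD3, SMAD4, SMAD5 and ACVR1B, differed by less than 1.5-fold. The 4 genes past 1.5-fold by this measure were thus all receptors. Dimmer kept probe sets of SMAD3 (2.05-fold higher) and SMAD2 (1.56-fold lower) also passed 1.5-fold, so this split depends on the probe set. The median log2 fold change of the 10 members was -0.04, beside -0.03 over all kept genes, and the median size of the change without its sign was 0.35 beside 0.23. By the raw ratio, 3 of the 29 kept probe sets were at least 2-fold higher, 2 of TGFBR1 and 1 of SMAD3, beside 3.89% of all kept probe sets. With signals raised to the background level the count was 2, because 1 of the TGFBR1 pair had a control signal at background and is not shown to pass 2-fold. The only probe set at least 2-fold lower was one of TGFBR3, beside 2.97% of all kept probe sets. In bulk RNA from a culture, fewer cells that express a gene and less RNA per cell cannot be told apart.

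**Figure D1:**
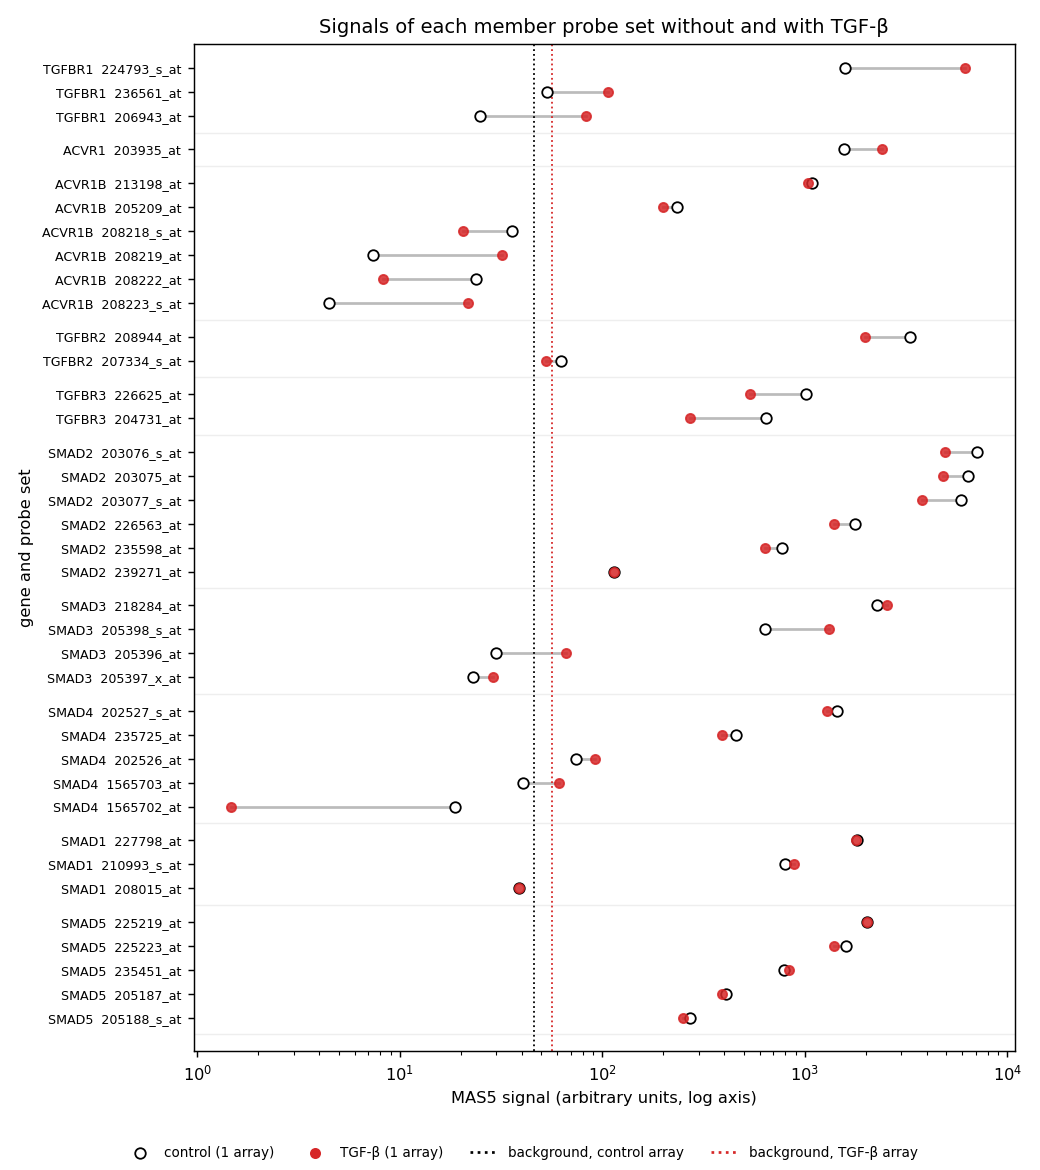
MAS5 signals (x axis, log scale, arbitrary units) of the 37 probe sets of the receptors and Smads (y axis, grouped by gene) on the control array (open points) and the TGF-β array (red points). Each point is 1 array and the dotted lines mark the background level of each array, 45.8 and 56.6. All 3 TGFBR1 probe sets were higher with TGF-β, both TGFBR3 probe sets were lower, and the wide gaps of ACVR1B and SMAD4 probe sets lie left of both lines.

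The signal of TGFBR1, the kinase that phosphorylates SMAD2 and SMAD3, was 1586 without TGF-β and 6178 with it, 3.90 times as high, or 1.96 on the log2 scale. Scatter was measured as the spread of log2 fold changes among the 500 kept probe sets closest in brightness, which is not a spread between replicates. It was 0.22 at this brightness, so the TGFBR1 change was 9.1 times as large. Its rise ranked 114 among 12375 genes, and 0.921% of the kept genes rose as far. A second TGFBR1 probe set went from 53.5, just above background, to 107, which is 1.995-fold, with a spread of 0.62. The third read 25.0 in untreated cells, below background, and 82.6 in treated cells. Its ratio of 3.31 has no precision of its own, and against the background level the rise was at least 1.80-fold. All 3 probe sets were thus higher on the TGF-β array. The size of the TGFBR1 rise rests on the bright probe set, whose name ends in _s_at, the mark Affymetrix gives to probe sets that can bind several transcripts. Without such shared-target probe sets (_s_at and _x_at), the log2 fold change of TGFBR1 was 1.00, from the second probe set.

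ACVR1, a type I receptor for BMP ligands that can also take part in TGF-β responses, had a single probe set. It read 1555 without TGF-β and 2392 with it, 1.54-fold higher or 0.62 on the log2 scale, which was 2.2 times the local spread of 0.28. Of all kept genes, 8.55% were higher by as much. ACVR1B, the activin type I receptor, read 1089 and 1035 by its brightest probe set, a log2 fold change of -0.07 that lay within the spread of 0.27. Its other kept probe set went from 234 to 199, also within the spread. The remaining 4 ACVR1B probe sets were at background on both arrays, where 2 were higher and 2 were lower with TGF-β, by up to 4.84 times. These ratios between background signals carry no information on ACVR1B, and no fold is taken from them. The type I receptors thus differed among themselves, with TGFBR1 well above its spread, ACVR1 at about 2 spreads and ACVR1B within it.

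TGFBR2, the type II receptor that binds TGF-β, was lower with the cytokine. Its bright probe set stood at 3321 in untreated and 1990 in treated cells, 1.67-fold lower or -0.74 on the log2 scale. This was 2.9 times the local spread of 0.26, and 5.87% of all kept genes were lower by as much. The other TGFBR2 probe set dimmed from 62.8 to 52.9, the latter at background, so by that measure TGFBR2 was at least 1.11-fold lower and within the spread of 0.71. The lower TGFBR2 signal therefore rests on 1 probe set.

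TGFBR3 had 2 probe sets well above background, and both were lower with TGF-β. The brighter went from 1011 to 535, 1.89-fold lower, or -0.92 on the log2 scale with a spread of 0.30. The dimmer went from 644 to 271, 2.37-fold lower, or -1.25 on the log2 scale with a spread of 0.32. The changes were 3.1 and 3.9 times the spread. Of all kept genes, 3.71% were lower by as much as the brighter probe set. TGFBR3 was thus just short of 2-fold by one probe set and past it by the other.

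**Figure D2:**
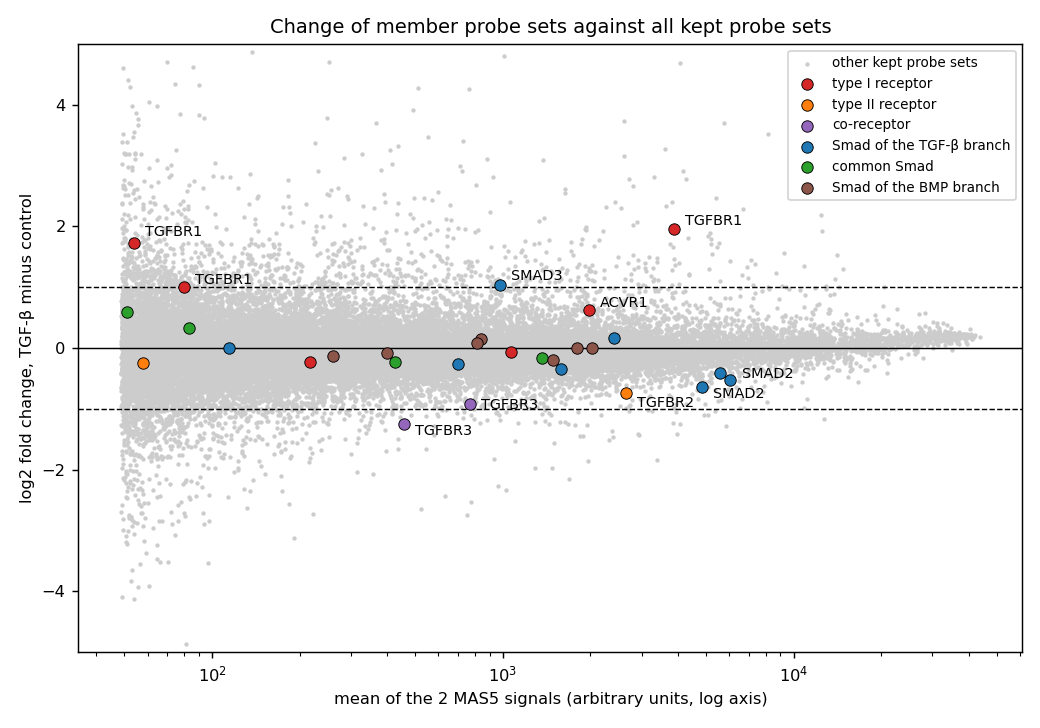
Log2 fold change (y axis, TGF-β minus control) against the mean of both MAS5 signals (x axis, log scale, arbitrary units) for 27307 kept probe sets in grey and the 29 kept member probe sets in colour by role. Each point is the ratio of 1 array to 1 array, dashed lines mark 2-fold, and 9 probe sets lie beyond the y axis. The bright TGFBR1 point lies at 1.96, and 0.828% of all kept probe sets, of any brightness, were higher by as much. The TGFBR3 points lie at -0.92 and -1.25, and the Smads of the BMP branch sit near 0.

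No member Smad reached 1.5-fold by its brightest probe set. SMAD2, a substrate of TGFBR1, had 6 kept probe sets, all above background. The brightest read 7117 without TGF-β and 4933 with it, 1.44-fold lower, and the log2 change of -0.53 was 3.0 times the spread of 0.18. The next went from 6395 to 4802, 1.33-fold lower, and one more from 5917 to 3795, 1.56-fold lower. Of the dimmer ones, one went from 1765 to 1391, 1.27-fold lower, and another from 768 to 638, 1.20-fold lower. The dimmest read 114 on both arrays. The 5 brighter SMAD2 probe sets were lower by 1.20-fold to 1.56-fold, and the 4 brightest by more than their local spread. These probe sets read the same RNA on the same arrays and are not replicates.

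SMAD3, the other substrate of TGFBR1, did not fall with SMAD2, and its probe sets differed in size. The brightest went from 2266 to 2553, 1.13-fold higher, and the log2 change of 0.17 lay within the spread of 0.24. The second went from 639 to 1311, 2.05-fold higher, and the log2 change of 1.04 was 3.4 times its spread of 0.31. The annotation lists both with the same transcript, and the name of the second ends in _s_at. Another SMAD3 probe set, just too dim to be kept with a mean signal of 47.8, went from 29.7, at background, to 65.8, a rise of at least 1.44-fold. The last was at background on both arrays. By its kept probe sets SMAD3 was thus 1.13-fold or 2.05-fold higher, and why they differ was not tested.

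SMAD4, the common partner of the phosphorylated Smads, read 1446 without TGF-β and 1284 with it by its brightest probe set, a log2 fold change of -0.17 within the spread of 0.28. Its second probe set went from 458 to 392 and the next from 73.8 to 92.4, each within its spread. Another SMAD4 probe set went from 40.8, at background, to 61.3, at least 1.34-fold higher. The fifth read 18.7 and 1.47, both at background. The 2 brighter SMAD4 probe sets were lower and the 2 dimmer kept ones higher, and none left the spread at its brightness.

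SMAD1 and SMAD5, which carry BMP signals, were close to equal on the arrays. The brightest SMAD1 probe set gave 1801 in untreated and 1799 in treated cells. The second SMAD1 probe set went from 797 to 888, a log2 fold change of 0.15, and the third read 38.6 on both arrays, at background. The brightest SMAD5 probe set read 2029 and 2025. The other 4 SMAD5 probe sets had log2 fold changes between -0.20 and 0.09, all within their spreads. Both genes thus kept within the scatter of probe sets of like brightness by each kept probe set, although a change of that size or smaller would not be detectable with 1 array per condition.

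Differences between members in their changes do not depend on scaling an array by 1 factor, which cancels in a ratio of 2 probe sets. The pairs were chosen after the values had been seen. The signal of TGFBR1 rose 6.50-fold relative to that of TGFBR2, a difference in log2 fold change of 2.70. Over the pairs of probe sets above background on both arrays, the shift was between 3.33-fold and 6.50-fold for TGFBR1 against TGFBR2 and between 3.77-fold and 9.24-fold for TGFBR1 against TGFBR3. Both the co-receptor and the type II receptor were lower, and the difference between them was -0.18 for TGFBR3 minus TGFBR2. The signal of ACVR1 was 1.62-fold higher relative to ACVR1B. SMAD3 was higher relative to SMAD2 in all 12 pairs of probe sets, by 1.13-fold to 3.20-fold and by 1.63-fold between the brightest. SMAD4 was higher relative to SMAD2 in 16 of 18 pairs, with differences in log2 fold change from -0.22 to 0.97. These pairs share arrays and probe sets and are a description.

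**Figure D3:**
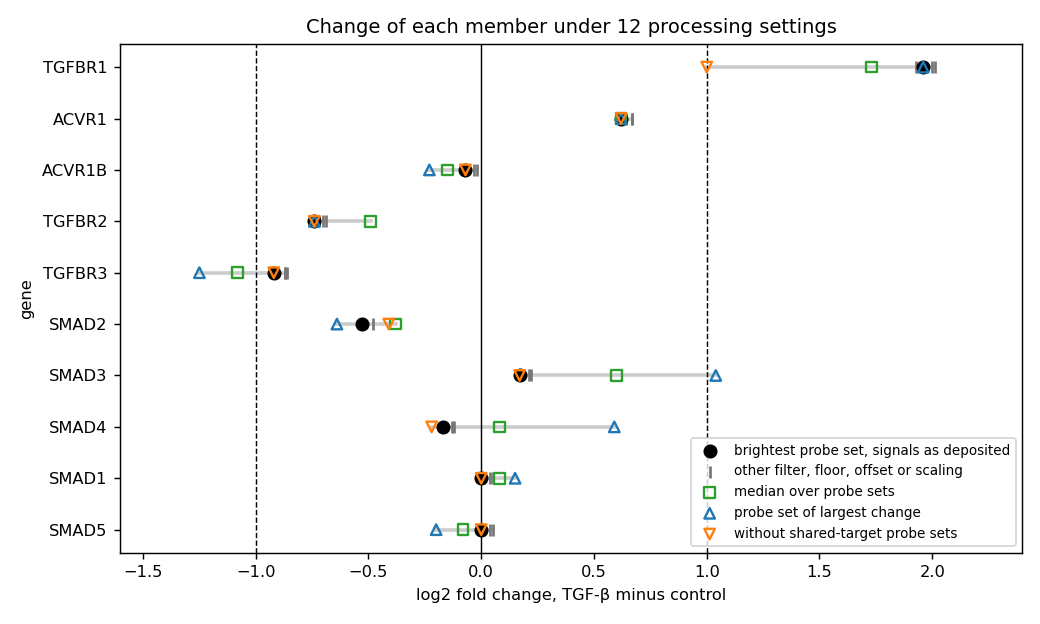
Log2 fold change (x axis, TGF-β minus control) of each of the 10 genes (y axis) with the signals as deposited and the brightest probe set (black points) and under 11 alternatives (other symbols). Each symbol is 1 ratio of 1 array to 1 array, grey bars span the settings, and dashed lines mark 2-fold. TGFBR1 ran from 1.00 to 2.01 and SMAD3 from 0.17 to 1.04, TGFBR2, TGFBR3 and SMAD2 stayed below 0, and SMAD4 lay on both sides of 0.

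The other genes of the pathway were set beside the members by role, from lists that held 133 genes, of which 109 were measured. By the raw ratio of signals, 19 of the 109 were at least 2-fold higher and 6 lower, beside the shares of 3.94% and 2.96% over all kept genes, which were counted in the same way. Of these 25, 4 had a signal at background, and with such signals raised to the background level 18 were higher and 5 lower, since the bounds of LDLRAD4 and ITGB8 lie under 2-fold. The median log2 fold change of the 109 was 0.14. Among receptors outside the members, BMPR2, the type II receptor for BMPs, was 2.41-fold higher, at 859 and 2067, and its 5 kept probe sets gave log2 fold changes between 0.93 and 1.27. The type I receptor BMPR1B went from 1033 to 1231, and the activin type II receptors ACVR2A and ACVR2B differed by 1.43-fold and 1.04-fold. ACVR1C, ACVRL1 and AMHR2 were too dim to be kept. By their brightest probe sets, 1 of 4 measured type I and type II receptors outside the members thus passed 2-fold. So did 1 of the 5 member receptors, which include the co-receptor TGFBR3. Both counts are too small to read against the shares of 3.94% and 2.96% over all kept genes.

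Of 14 measured co-receptors and receptor partners, 2 were at least 2-fold higher, and 1 was lower past 2-fold only by a raw ratio to a signal at background. Neuropilin 2 (NRP2) went from 312 to 892, a 2.86-fold rise, although its 10 kept probe sets ran from -0.10 to 2.75 in log2 fold change. The integrin subunit ITGAV, which takes part in release of TGF-β from its latent complex, went from 8522 to 17297, 2.03-fold higher. ITGB8, its partner in that release, went from 97.4 to 18.4, the latter at background, and was at least 1.72-fold lower. Of 12 measured ligands and latency proteins, 3 were at least 2-fold higher and 2 at least 2-fold lower. BMP6 went from 145 to 571, GDF11 from 61.8 to 154 (with other probe sets down to -0.44 in log2 fold change), and the latent TGF-β binding protein LTBP2 from 1645 to 3626. INHBB, an activin subunit, was at least 3.45-fold lower and BMP4 went from 190 to 94.6. Of the TGF-β ligand genes, TGFB1 read 588 and 742, TGFB2 372 and 671, and TGFB3 89.4 and 60.1, all under 2-fold. The 3 kept probe sets of TGFB2 ran from 0.66 to 0.85 in log2 fold change. BMP2 went from 368 to 728, just short of 2-fold by its brightest probe set.

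Genes that restrain receptors and Smads stood in several of the lists and were not a list of their own, and those named here are a selection. SMAD7, which blocks TGFBR1 and recruits ubiquitin ligases to it, went from 786 to 1620, and SMAD6, its relative, from 662 to 964, a ratio of 1.46 that is under 2-fold. SMURF2, a ubiquitin ligase that acts on the receptor complex with SMAD7, went from 1312 to 2806, 2.14-fold higher. PMEPA1, which keeps SMAD2 and SMAD3 from the receptor, went from 5227 to 19834, and LDLRAD4, a protein of the same kind, was at least 1.66-fold higher. BAMBI, a decoy receptor, read 7055 and 6690. By their brightest probe sets, SMURF1, PPM1A, STRAP and SKI, with log2 fold changes between 0.10 and 0.51, did not reach 2-fold either. The 4 kept probe sets of SMURF1 disagreed, however, and ran from -1.33 to 0.93. Of 18 measured genes of receptor and Smad degradation, SMURF2 and PMEPA1 were at least 2-fold higher by the brightest probe set. By that probe set LDLRAD4 passed 2-fold only in its raw ratio, and its 2 kept probe sets gave raw log2 ratios of 1.44 and 3.40. None was 2-fold lower by the brightest probe set, although dimmer kept probe sets of SMURF1 and WWP2 reached -1.33 and -1.16 in log2 fold change. NEDD4L went from 537 to 352, 1.52-fold lower, and its 4 kept probe sets ran from -0.73 to -0.29. CTDSP1 went from 754 to 484, 1.56-fold lower. The median log2 fold change of these 18 genes was 0.03. Of 13 measured co-repressors and co-activators, SKIL, which represses with SMAD4, alone passed 2-fold by the brightest probe set, going from 3841 to 10442. The 2 kept probe sets of E2F4 gave log2 fold changes of 0.31 and 1.20.

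None of 12 measured genes for Smad anchors and nuclear transport passed 2-fold, and the largest change by the brightest probe set was that of TGIF2, 1.47-fold higher, although its 2 kept probe sets gave 0.56 and -0.54 in log2 fold change. Of 17 measured genes of Smad-independent kinase signalling, MAPK3, which encodes ERK1, alone passed 2-fold, from 280 to 96.0, by a probe set whose name ends in _x_at. Of 22 measured Smad target genes, 12 were at least 2-fold higher and 2 at least 2-fold lower, with a median log2 fold change of 1.09. The lists overlap, and SKIL, SMAD7, PMEPA1 and LTBP2, given above from other lists, are among those higher. Of the target genes, COL1A1 rose most, by 13.0-fold, although its 4 kept probe sets ran from 0.22 to 3.70 in log2 fold change, before CCN2 at 9.69-fold and LMCD1 at 4.95-fold. The 3 kept probe sets of LMCD1 ran from 0.85 to 3.40. Those that fell past 2-fold were ID2, 3.56-fold lower, and CDH1, which encodes E-cadherin, 2.31-fold lower. COL1A1, CCN2 and LMCD1 are among the genes picked by the study from these arrays, so their rises are not independent evidence.

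**Figure D4:**
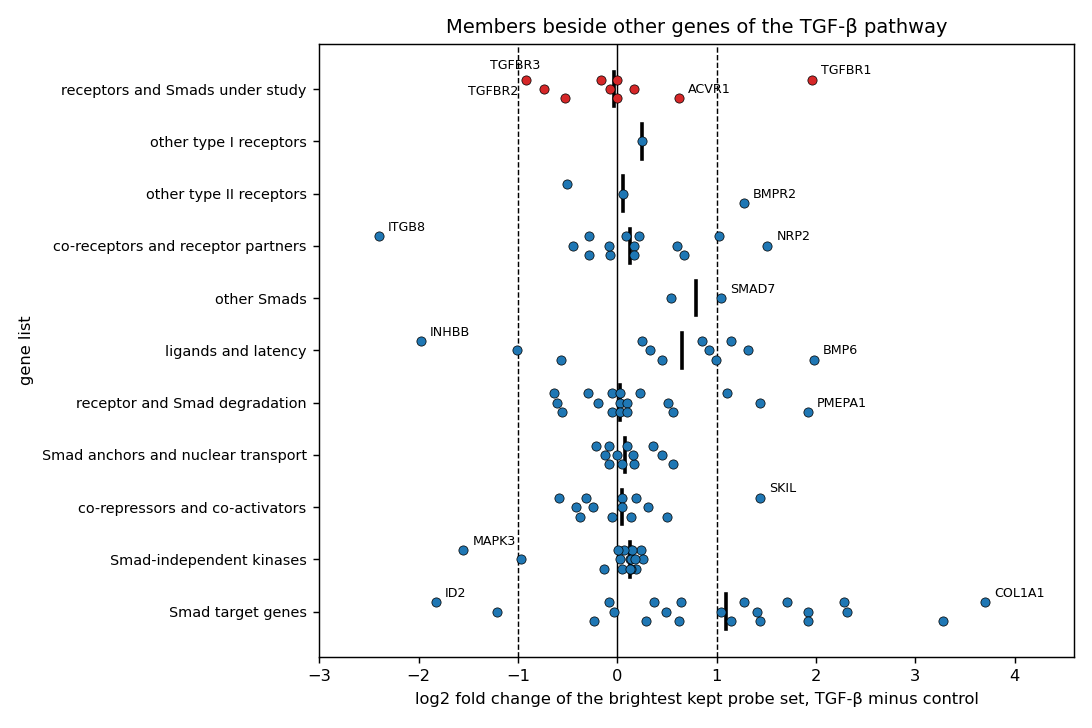
Log2 fold change of the brightest kept probe set (x axis, TGF-β minus control) for the 10 receptors and Smads (red) and for the other pathway lists (blue, y axis). Each point is 1 gene from 1 array per condition, black bars are list medians and dashed lines mark 2-fold. The members centre on -0.04 with TGFBR1 apart at 1.96, the anchors and transport genes all lie inside the 2-fold lines, and the target genes have a median of 1.09.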

How the data were processed

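RNA of 1 control culture and 1 culture treated with TGF-β was measured on 1 array each. The intensities deposited by the authors come from MAS5, per the labels and without a version, with other settings unstated in the sources used here. Without the top and bottom 2% of signals, both arrays averaged 500, so they had been scaled alike. Probe sets were named from the platform annotation, and symbols were updated through RefSeq gene identifiers, which 41037 of 41091 probe sets with 1 symbol had. No member shared a probe set with another symbol. Log2 ratios, spreads (scaled median absolute deviation), loess with span 0.3 and quantile scaling used statsmodels 0.14.6, scipy 1.17.1, pandas 2.3.3 and numpy 2.4.6 in Python 3.11.15 (plots: matplotlib 3.10.9). The calculation was tested on simulated data. No test was made between single arrays.

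All members were named, and per pathway list at most 3 genes 2-fold or more higher and 3 lower, or else the gene that changed most. Some other list genes were named after their values had been seen. The members and lists were chosen with earlier results of these data known. The alternatives were no filter and one at the 75 percentile (349), an offset of 50, floors at the array median and at background, median, quantile and loess scaling, the median over probe sets, the probe set of largest change, leaving out shared-target probe sets, and a threshold of 1.5-fold. Promoter windows came from RefSeq. Genes without a probe set of their symbol alone were not analysed here.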

Additional observations from a re-analysis of the deposited data

How the results depend on the processing

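Processing alternatives say nothing of variation between cultures. Of 110 member log2 fold changes under 11 alternatives, 6 moved by more than the local spread. TGFBR1 stayed above 0 in all of them, and SMAD4 and SMAD5 lay on both sides of 0. TGFBR1 (1.96) came to 1.73 when probe sets were reduced to their median and 1.00 without shared-target probe sets, SMAD3 (0.17) was 0.60 by the median and 1.04 by the probe set that changed most, and by that choice SMAD4 (-0.17) was 0.59 and TGFBR3 (-0.92) was -1.25. Of the members, 1 was higher and 0 lower at 2-fold. The higher ones became 2 by the probe set of largest change, 2 at 1.5-fold and 0 without shared-target probe sets, and the lower ones 1 by the median, 1 by the probe set of largest change and 2 at 1.5-fold. Member probe sets at least 2-fold higher (3) became 6 without the filter, 1 with the offset, 6 at 1.5-fold and 1 without shared-target probe sets, and those lower (1) became 3 without the filter and 4 at 1.5-fold. The member probe sets added without the filter all had a signal at background on 1 or both arrays, so their raw ratios do not show a 2-fold change. Pathway genes at least 2-fold lower (6) became 2 with the stricter filter, 11 without a filter, 10 at 1.5-fold and 2 without shared-target probe sets. Filters, thresholds and the choice of probe set act on these counts by construction. No paired analysis was possible because each condition had 1 array. Signal over background limits the dim probe sets, 11 of 37 with a signal at background on 1 or both arrays.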
